A study of Mus musculus with 4 samples.

Results

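Astrocytes and radial glia, the supporting cells of the brain and spinal cord, are recognised by a set of genes for glial filaments, glutamate uptake, lipid binding, gap junctions and water channels. Peripheral glia share part of this set: immature and nonmyelinating Schwann cells carry glial fibrillary acidic protein, and myelinating Schwann cells keep it off. In the set examined here, Gfap, Vim and Nes encode intermediate filament proteins, Slc1a3 and Glul handle glutamate, Fabp7 binds fatty acids, Gja1 and Aqp4 form channels, and Mmd2 encodes a membrane protein of the progestin and adipoQ receptor family. These 9 genes were chosen by symbol out of 22096 in the tables, after high Gfap and Slc1a3 had been seen in the Zeb2 cKO. They are listed on 10 of 28107 transcript rows, all with an OK quantification status in both libraries, and all 9 passed the filter on low values.

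The libraries came from sciatic nerves at postnatal day 7, the age at which Schwann cells are wrapping axons with myelin. The Zeb2 cKO group is a conditional knockout of Zeb2, which encodes a zinc finger transcription factor, and the control group is labelled only as Control. Both groups are on a mixed strain background and were sequenced from pooled nerves. The Cre driver, the deleted exons and the number of animals in a pool are not given in the sources used here. The labels give 2 samples per group, and the tables used here hold 1 library of each group, so the remaining labelled samples were not analysed here. No test between the conditions was therefore possible, and every difference below compares these 2 libraries, referred to as Zeb2 cKO nerve and control nerve. Levels are in FPKM, fragments scaled to transcript length and to library size, and a value is the sum over the gene's transcript rows. Intervals in the text are 95% intervals from an estimated number of reads and cover counting error only.

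The Zeb2 cKO table holds an estimated 20144477 reads, and that of the control an estimated 29563339. Zeb2 itself was at 19.5 FPKM in Zeb2 cKO nerve and 34.4 FPKM in control nerve, so the direction was that of the labels. A gene was called apart when its ratio, with 1 FPKM added to both values, was 2-fold or more. Of 12903 genes at a mean of 1 FPKM or more, 8.59% were called higher and 6.25% were called lower in Zeb2 cKO nerve. These shares are the background for every list count below, and the lists were chosen with earlier results of these data known. A gene low in 1 library could pass the mean of 1 FPKM through the other library alone, which bears on list counts and medians. Over all measured genes the median log2 ratio was 0.18. Rescaling the Zeb2 cKO values to remove this offset changed the calls: the counts of 1109 higher and 806 lower became 782 and 960.

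In this nerve the 9 genes did not all differ in 1 direction. By FPKM, 7 of the 9 genes were higher and 2 were lower in Zeb2 cKO nerve. Of the 9, 4 were called higher (Gfap, Slc1a3, Mmd2 and Gja1), beside 8.59% of all genes, and 2 were called lower (Nes and Aqp4), beside 6.25%. Vim, Glul and Fabp7 were within 2-fold, and the median log2 ratio over the 9 was 0.94. Since the genes were picked on this contrast, the counts are a description and are not read against the shares of all genes. The calls were the same after rescaling to the median gene. Whole nerve holds several kinds of cell, so fewer cells of a type and less RNA per cell cannot be told apart.

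**Figure D1:**
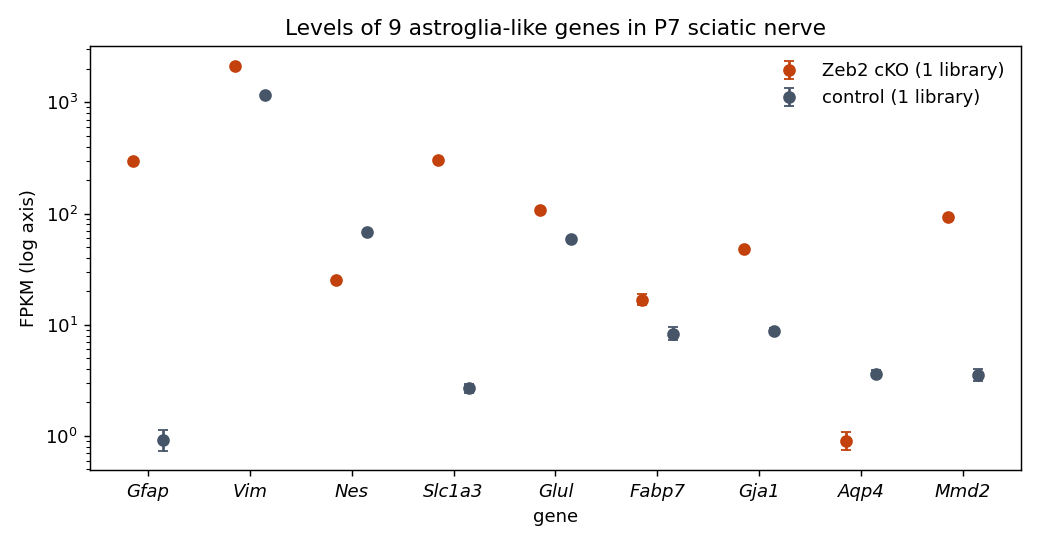
FPKM (log axis) of each of the 9 genes in Zeb2 cKO nerve and in control nerve; points are single libraries and bars are 95% counting intervals. Gfap and Slc1a3 stand near 300.1 and 306 FPKM in Zeb2 cKO nerve and near 0.914 and 2.68 FPKM in control nerve, while Nes and Aqp4 are lower in Zeb2 cKO nerve.

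The windows upstream of the 3 genes with the highest ratios are shown, 250 bases each, so that the promoters of Gfap, Slc1a3 and Mmd2 can be compared with one another. They are RefSeq sequences on GRCm38.p6, written 5′ to 3′ on the strand of the gene and ending at the base before the annotated start. The bases just after the RefSeq start were found in a GENCODE transcript for Gfap and Mmd2 and not for Slc1a3. Among the other genes searched, such bases were found for Vim, Nes and Fabp7 and not for Glul and Gja1. Capitals mark matches to any of the motifs searched on both strands.
Gfap, chr11:102897201-102897450, minus strand: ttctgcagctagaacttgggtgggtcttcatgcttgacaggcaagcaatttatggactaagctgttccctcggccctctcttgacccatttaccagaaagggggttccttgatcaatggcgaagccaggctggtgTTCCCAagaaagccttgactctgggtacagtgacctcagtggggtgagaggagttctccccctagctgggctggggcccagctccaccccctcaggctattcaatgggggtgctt
Slc1a3, chr15:8710808-8711057, minus strand: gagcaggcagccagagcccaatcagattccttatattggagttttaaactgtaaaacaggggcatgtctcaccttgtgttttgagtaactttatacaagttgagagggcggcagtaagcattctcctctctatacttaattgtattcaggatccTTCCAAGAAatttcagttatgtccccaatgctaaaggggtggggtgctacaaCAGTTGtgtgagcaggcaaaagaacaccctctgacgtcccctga
Mmd2, chr5:142608753-142609002, minus strand: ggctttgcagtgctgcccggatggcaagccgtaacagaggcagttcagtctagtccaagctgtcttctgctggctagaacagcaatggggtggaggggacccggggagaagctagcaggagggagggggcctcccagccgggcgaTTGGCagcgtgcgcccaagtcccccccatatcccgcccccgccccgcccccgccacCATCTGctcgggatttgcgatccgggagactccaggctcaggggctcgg

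The E-box CACCTG, the sequence that ZEB family proteins are known to bind, had 0 matches in the windows of the 8 genes searched, and 17.2% of all 32851 windows held it. The general E-box CANNTG, of which CACCTG is one form, was found in 5 of the 8 windows and in 66.2% of all windows. In the Slc1a3 window it lay at position -44, where -1 is the base before the start, and in the Mmd2 window at -49. The Slc1a3 window also held TTCNNNGAA, the form of site bound by STAT proteins, at -96, which 7.02% of all windows held. The Gfap window held TGGGAA, the form bound by the Notch effector RBPJ, at -115, as did 21.6% of all windows. TTGGC, the core recognised by nuclear factor I, was at -105 in the Mmd2 window and in 41.5% of all windows. The AP-1 form TGANTCA matched only in the Gja1 window, and the SOX form ACAATG had 0 matches in the 8, against 6.75% and 10.7% of all windows. The bases of the windows were 55.6% G or C for Gfap, 44.8% for Slc1a3 and 67.2% for Mmd2, against a median of 52.4% over all windows. These are matches of letters, not sites.

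Gfap, the filament protein of astrocytes and of Schwann cells outside myelin (chromosome 11, 102748650 to 102758514, mm9), was at 300.1 FPKM in Zeb2 cKO nerve and 0.914 FPKM in control nerve. It ranked 181st of 21965 genes by level in Zeb2 cKO nerve and 12604th in control nerve. The counting intervals of the levels were 296 to 304 FPKM in Zeb2 cKO nerve, from about 19629 reads, and 0.733 to 1.13 FPKM in control nerve, from about 88 reads. The ratio was 329-fold, with an interval of 266 to 410.

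Cufflinks listed 2 Gfap transcripts that share their 5′ end and have 3′ ends that lie 2830 bases apart on the genome. The transcript with the longer span on the genome, 2717 bases when spliced, was at 265 FPKM in Zeb2 cKO nerve and 0.823 FPKM in control nerve. The transcript with the shorter span, 2600 bases when spliced, was at 35.4 FPKM in Zeb2 cKO nerve and 0.0903 FPKM in control nerve. The shorter one took 11.3% of the gene's estimated reads in Zeb2 cKO nerve (Clopper-Pearson interval 10.9 to 11.8%). In the control library it took 9.50% (4.28 to 17.6%), resting on about 8 reads. The intervals overlap, and a difference in the use of the 3′ ends was not tested. The split between rows that share exons is an estimate made by Cufflinks, and the intervals do not cover the error of that split.

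Vim, vimentin, the general filament of mesenchymal and glial cells (chromosome 2, 13495938 to 13504453), had the highest level of the 9 genes in both libraries. It was at 2146 FPKM in Zeb2 cKO nerve and 1166 FPKM in control nerve, which ranked it 9th and 26th of all genes. The ratio was 1.84-fold (interval 1.82 to 1.86), within the 2-fold limit. Nes, nestin, a filament of neural progenitors that Schwann cells and developing muscle also make (chromosome 3, 87775015 to 87784373), went the other way. It was at 25.5 FPKM in Zeb2 cKO nerve and 68.5 FPKM in control nerve, 2.69-fold lower (interval 2.60 to 2.79).

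The composition of the filament transcripts differed between the libraries. Of the summed FPKM of Gfap, Vim and Nes, Gfap made up 12.1% in Zeb2 cKO nerve and 0.0740% in control nerve. Vim made up 86.8% in Zeb2 cKO nerve and 94.4% in control nerve, and Nes 1.03% in Zeb2 cKO nerve and 5.55% in control nerve. The sum was 2472 FPKM in Zeb2 cKO nerve and 1235 FPKM in control nerve.

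Most other genes of the filament system were within 2-fold. Without Gfap, Vim and Nes, 15 genes of the list of intermediate filaments and their linkers were measured, with a median log2 ratio of -0.04, and 1 was called higher and 1 lower. The higher one was Krt19, a keratin of perineurial and epithelial cells, at 7.50 FPKM in Zeb2 cKO nerve and 2.06 FPKM in control nerve. The lower one was Des, the filament of muscle, at 19.8 FPKM in Zeb2 cKO nerve and 100.03 FPKM in control nerve. The neuronal filament Prph was at 1.88 FPKM in Zeb2 cKO nerve and 1.83 FPKM in control nerve. Synm, synemin, a filament partner of vimentin and desmin, was at 2.98 FPKM in Zeb2 cKO nerve and 2.47 FPKM in control nerve, and Lmna, the nuclear lamin, at 96.5 FPKM in Zeb2 cKO nerve and 105 FPKM in control nerve.

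Slc1a3, the glutamate and aspartate transporter of astrocytes and radial glia (chromosome 15, 8584124 to 8660807), was at 306 FPKM in Zeb2 cKO nerve and 2.68 FPKM in control nerve. It ranked 177th in Zeb2 cKO nerve, beside Gfap, and 10524th in control nerve. The ratio was 114-fold (interval 103 to 126), from about 31098 and 400 reads. The counting interval of its Zeb2 cKO level, 302 to 309 FPKM, overlaps that of Gfap.

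With the pseudocount and the filter used here, Slc1a3 was the one gene of its family to be called apart. The SLC1 family has 7 members in the tables, of which the glutamate transporters Slc1a1 and Slc1a2 and the neutral amino acid transporters Slc1a4 and Slc1a5 were looked at beside it. Slc1a3 held 88.1% of the summed FPKM of the family in Zeb2 cKO nerve and 9.26% in control nerve. The family summed to 347 FPKM in Zeb2 cKO nerve and 28.9 FPKM in control nerve. Slc1a5 had the highest level of the family in control nerve, 20.8 FPKM, and was at 30.4 FPKM in Zeb2 cKO nerve. Slc1a4 was at 8.78 FPKM in Zeb2 cKO nerve and 3.92 FPKM in control nerve, 2.24-fold higher by FPKM (interval 2.01 to 2.50). With the pseudocount its log2 ratio was 0.99, just short of the 2-fold call. Slc1a2, the main glutamate transporter of mature astrocytes, was at 0.992 FPKM in Zeb2 cKO nerve and 0.257 FPKM in control nerve. By FPKM Slc1a2 was 3.87-fold higher (interval 3.07 to 4.91). Slc1a1 was at 0.178 FPKM in Zeb2 cKO nerve and 0.302 FPKM in control nerve. Both Slc1a2 and Slc1a1 were below the filter.

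**Figure D2:**
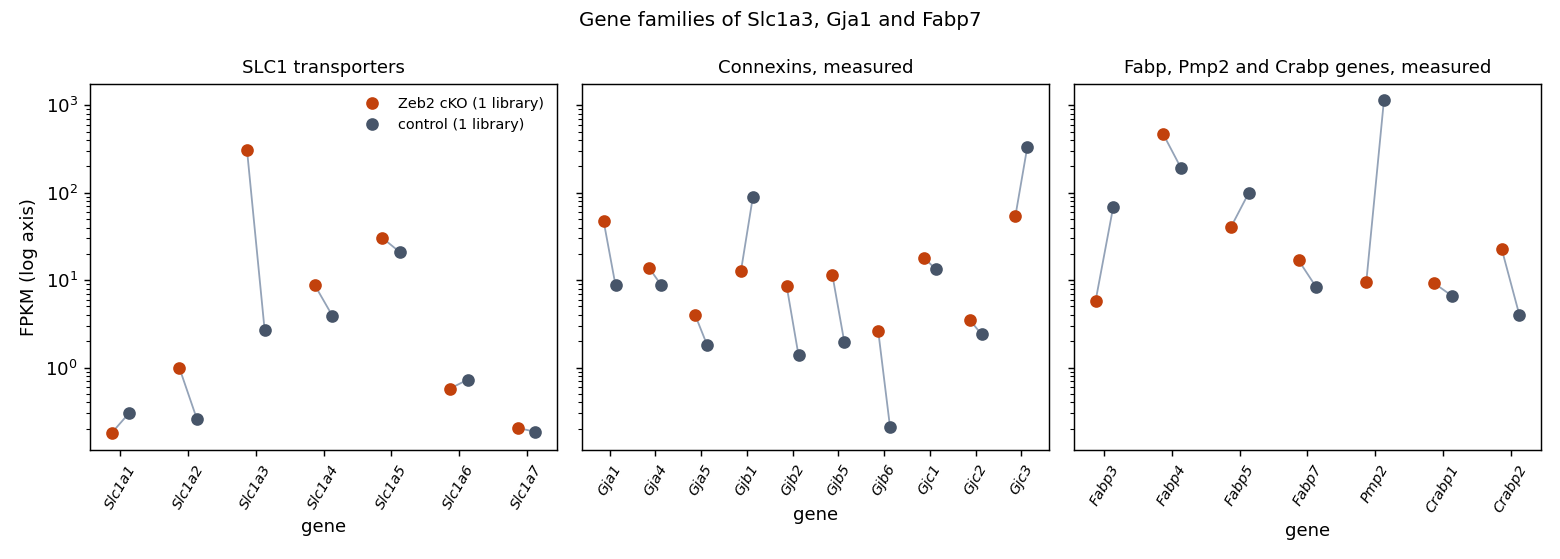
FPKM (log axis) in Zeb2 cKO nerve and in control nerve for the SLC1 transporters, the measured connexins and the measured Fabp, Pmp2 and Crabp genes; each point is 1 library and a line joins the same gene. Slc1a3 and Gja1 are higher in Zeb2 cKO nerve, while Gjb1, Gjc3 and Pmp2 are lower in it.

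Glul, glutamine synthetase, which turns glutamate into glutamine (chromosome 1, 155747075 to 155756844), was at 109 FPKM in Zeb2 cKO nerve and 59.3 FPKM in control nerve. The ratio was 1.83-fold (interval 1.77 to 1.90), close to that of Vim and far from that of Slc1a3. It was not called apart.

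Most of the other glutamate and glutamine genes were within 2-fold. Without Slc1a3 and Glul, 21 genes were measured, 4 were called higher and 1 lower, and the median log2 ratio was 0.26. Slc38a3, a glutamine transporter of astrocytes, was at 4.41 FPKM in Zeb2 cKO nerve and 0.968 FPKM in control nerve. Slc38a1, another glutamine transporter, was at 4.10 FPKM in Zeb2 cKO nerve and 1.30 FPKM in control nerve. Slc6a11 and Slc6a13, carriers of the inhibitory transmitter GABA, were 13.5-fold and 2.59-fold higher, at 4.08 and 7.00 FPKM in Zeb2 cKO nerve, against 0.302 and 2.71 FPKM in control nerve. After rescaling to the median gene, Slc38a1 and Slc6a13 were within 2-fold, with log2 ratios of 0.98 and 0.93. Slc3a2, the heavy chain of several amino acid exchangers and the gene of this list with the highest control level, was at 35.7 FPKM in Zeb2 cKO nerve and 62.7 FPKM in control nerve.

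Fabp7, the brain lipid-binding protein of radial glia and Schwann cell precursors (chromosome 10, 57504729 to 57508256), was at 16.8 FPKM in Zeb2 cKO nerve and 8.30 FPKM in control nerve. By FPKM this was 2.03-fold, with an interval of 1.70 to 2.42 from about 310 and 225 reads, and with the pseudocount it fell just short of the 2-fold call. Of its 8 measured relatives, 3 were called higher and 3 lower. Pmp2, the peripheral myelin member of the family, was 119-fold lower, at 9.63 FPKM in Zeb2 cKO nerve and 1145 FPKM in control nerve. Fabp3, of muscle and heart, was at 5.77 FPKM in Zeb2 cKO nerve and 68.4 FPKM in control nerve, and Fabp5 at 40.5 FPKM in Zeb2 cKO nerve and 98.6 FPKM in control nerve. Fabp4, of adipocytes and endothelium, was higher, at 468 FPKM in Zeb2 cKO nerve and 194 FPKM in control nerve. Crabp2, which binds retinoic acid, was higher as well, at 22.7 FPKM in Zeb2 cKO nerve and 4.02 FPKM in control nerve.

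Gja1, connexin 43, the gap junction protein of astrocytes and of fibroblasts and perineurial cells (chromosome 10, 56097106 to 56110225), was at 47.6 FPKM in Zeb2 cKO nerve and 8.75 FPKM in control nerve. The ratio was 5.44-fold (interval 5.06 to 5.85). The other connexins held calls in both directions. Gjb1 and Gjc3, the connexins 32 and 29 of myelinating Schwann cells, were at 12.6 and 54.8 FPKM in Zeb2 cKO nerve, against 88.5 and 337 FPKM in control nerve. They were 7.01-fold and 6.15-fold lower. Gjb2, Gjb5 and Gjb6 were 6.23-fold, 5.82-fold and 12.8-fold higher, at 8.56, 11.4 and 2.64 FPKM in Zeb2 cKO nerve and 1.37, 1.96 and 0.206 FPKM in control nerve. Over the 10 measured connexins and pannexins other than Gja1, 3 were called higher and 2 lower, with a median log2 ratio of 0.50.

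Aqp4, the water channel of astrocyte endfeet and of fast muscle fibres (chromosome 18, 15547903 to 15562193), had a low level in both libraries. It was at 0.900 FPKM in Zeb2 cKO nerve and 3.63 FPKM in control nerve, from about 111 and 656 reads, 4.04-fold lower (interval 3.30 to 4.99). The other measured aquaporins were within 2-fold. Among them Aqp1, the water channel of endothelium and red cells, was at 48.1 FPKM in Zeb2 cKO nerve and 24.3 FPKM in control nerve, at a log2 ratio of 0.96.

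The dystrophin complex anchors Aqp4 in endfeet and muscle, and its genes were listed together with other endfoot partners of Aqp4. All 12 genes of this list were measured, with a median log2 ratio of -0.45, and 1 was called higher and 4 lower (5 after rescaling to the median gene). The higher call was Mlc1 and 1 of the lower calls was Hepacam, both endfoot partners outside the complex, and the other 3 lower calls were Drp2, Utrn and Dmd. Drp2, the dystrophin relative of Schwann cells, was 40.6-fold lower, at 2.24 FPKM in Zeb2 cKO nerve and 90.9 FPKM in control nerve. Utrn, utrophin, was at 20.2 FPKM in Zeb2 cKO nerve and 78.3 FPKM in control nerve, and Dmd, dystrophin, at 7.64 FPKM in Zeb2 cKO nerve and 22.8 FPKM in control nerve. Dag1, dystroglycan, had the highest level of the list, 163 FPKM in Zeb2 cKO nerve and 226 FPKM in control nerve. Mlc1 and Hepacam, membrane proteins that partner each other in astrocytes, went opposite ways. Mlc1 was at 7.77 FPKM in Zeb2 cKO nerve and 0.210 FPKM in control nerve, and Hepacam at 9.46 FPKM in Zeb2 cKO nerve and 26.7 FPKM in control nerve. Kcnj10, the potassium channel of astrocytes and satellite glia, was at 58.2 FPKM in Zeb2 cKO nerve and 29.1 FPKM in control nerve.

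Nes, Aqp4, Des and Fabp3 are also genes of developing muscle, and muscle marker levels differed between the libraries. All 12 measured skeletal muscle markers of 13 listed were called lower in Zeb2 cKO nerve, with a median log2 ratio of -2.94, and their summed level was 750 FPKM there and 6317 FPKM in control nerve. The measured markers ranged over 0.263 to 229 FPKM in Zeb2 cKO nerve and over 2.54 to 1879 FPKM in control nerve, and 0 of the 13 were listed at 0. The part of this difference in the lower Nes and Aqp4 was not tested.

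Mmd2 (chromosome 5, 143039435 to 143084706), a gene of astroglial precursors in the mouse spinal cord, was at 92.6 FPKM in Zeb2 cKO nerve and 3.54 FPKM in control nerve. The ratio was 26.1-fold (interval 23.1 to 29.7), from about 4808 and 270 reads. Its closest relative Mmd was at 14.0 FPKM in Zeb2 cKO nerve and 9.004 FPKM in control nerve. Of the 9 measured genes of the progestin and adipoQ receptor family other than Mmd2, 1 was called higher and 1 lower, or 2 lower after rescaling to the median gene. The calls without rescaling were Paqr5, at 4.25 FPKM in Zeb2 cKO nerve and 0.289 FPKM in control nerve, and Paqr7, at 7.11 FPKM in Zeb2 cKO nerve and 16.1 FPKM in control nerve. Adipor1, an adiponectin receptor and the relative with the highest level, was at 60.5 FPKM in Zeb2 cKO nerve and 80.9 FPKM in control nerve.

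The order of the 9 genes by FPKM differed between the libraries. In the Zeb2 cKO library it ran Vim, Slc1a3, Gfap, Glul, Mmd2, Gja1, Nes, Fabp7 and Aqp4 from high to low, and the counting intervals of Slc1a3 and Gfap overlapped. In the control library it ran Vim, Nes, Glul, Gja1, Fabp7, Aqp4, Mmd2, Slc1a3 and Gfap. There the intervals of Gja1 (8.20 to 9.32 FPKM) and Fabp7 (7.25 to 9.46 FPKM) overlapped, as did those of Aqp4 (3.36 to 3.92 FPKM) and Mmd2 (3.13 to 3.99 FPKM). All other neighbours were separated by more than counting error. Gfap was last of the 9 in control nerve and close to Slc1a3 near the top in Zeb2 cKO nerve.

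**Figure D3:**
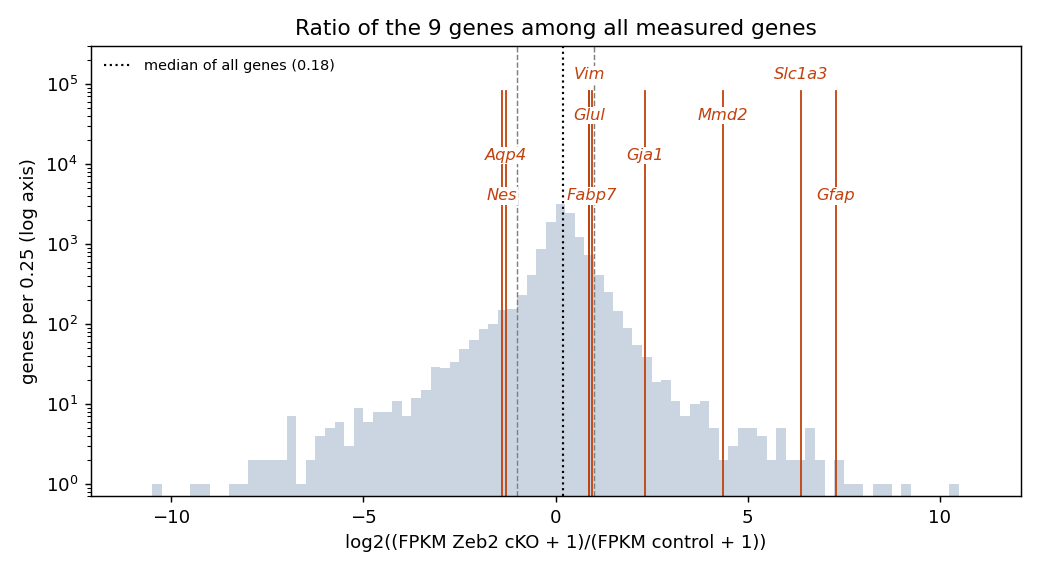
Number of genes (log axis) by log2 ratio of the Zeb2 cKO library to the control library, with 1 FPKM added to both, in bins 0.25 wide; vertical lines mark the 9 genes, dashed lines 2-fold and the dotted line the median of all genes, 0.18. Nes and Aqp4 lie at -1.39 and -1.29, Glul, Vim and Fabp7 at 0.86, 0.88 and 0.94, and Gja1, Mmd2, Slc1a3 and Gfap at 2.32, 4.37, 6.38 and 7.30.

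Among all 12903 measured genes ordered by that ratio, Gfap was 8th, Slc1a3 17th, Mmd2 44th and Gja1 157th from the top. Nes was 557th and Aqp4 629th from the bottom. The 3 genes on each side of Gfap in the order, among those that reached 5 FPKM in either library, were all rows of microRNA genes listed at 0 in control nerve. These 6 rows span 67 to 95 bases and rest on about 187 to 408 reads in Zeb2 cKO nerve. The genes beside Slc1a3 were 3 microRNA rows of that kind and the longer genes Aldh1a1, Csn3 and Zpld1. Aldh1a1, an enzyme that makes retinoic acid, was at 244 FPKM in Zeb2 cKO nerve and 1.597 FPKM in control nerve. With 1 ratio for each gene, likeness of place says no more than that the ratios were similar.

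The wider list of astrocyte genes held calls in both directions. Without its 6 genes already described, 24 genes of the astrocyte list were measured, 8 were called higher and 2 lower, and the median log2 ratio was 0.70. Aldoc, the brain form of aldolase, was 17.3-fold higher, at 92.1 FPKM in Zeb2 cKO nerve and 5.34 FPKM in control nerve. Atp1b2, a sodium pump subunit of glia, was at 133 FPKM in Zeb2 cKO nerve and 24.1 FPKM in control nerve. S100b, a calcium-binding protein of astrocytes and Schwann cells, was 4.42-fold lower, at 42.5 FPKM in Zeb2 cKO nerve and 188 FPKM in control nerve. Apoe and Cst3 had the highest levels of the list, 545 and 539 FPKM in Zeb2 cKO nerve against 459 and 368 FPKM in control nerve, and were within 2-fold. Sox9, a transcription factor of glial progenitors, was at 9.76 FPKM in Zeb2 cKO nerve and 5.66 FPKM in control nerve.

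The label of astroglia rests on shared genes, and several of the markers most restricted to astrocytes were low in both libraries. Aldh1l1 was at 1.58 FPKM in Zeb2 cKO nerve and 2.13 FPKM in control nerve. Ntsr2 was at 0.163 FPKM in Zeb2 cKO nerve and 0.0758 FPKM in control nerve, and Slc39a12 at 0.0290 FPKM in Zeb2 cKO nerve and 0.0310 FPKM in control nerve. Of the 10 listed, 7 were measured, 3 called higher (Gjb6, Mlc1 and Acsbg1) and 1 lower (Hepacam), with a median log2 ratio of 0.57. Gjb6 and Mlc1 passed the filter through their Zeb2 cKO level. The median was 0.38 over all 10 without the filter, and 0.07 at a mean of at least 5 FPKM. Acsbg1, Mlc1 and Gjb6 were at 14.0, 7.77 and 2.64 FPKM in Zeb2 cKO nerve and 4.14, 0.210 and 0.206 FPKM in control nerve. The summed level of the 10 was 41.0 FPKM in Zeb2 cKO nerve and 36.5 FPKM in control nerve, and no restricted marker was listed at 0. Hepacam held most of the control sum, at 26.7 FPKM there and 9.46 FPKM in Zeb2 cKO nerve, so the similar sums hide changes in both directions.

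Beyond the 9 genes, the list of radial glia genes held calls in 1 direction. Without its 5 genes already described, 15 of the list were measured, 11 were called higher and 0 lower, and the median log2 ratio was 1.44. Of all measured genes, 8.59% were called higher and 6.25% lower. The list was chosen with earlier results known, so its count is a description. Ptn, the growth factor pleiotrophin, was 15.3-fold higher, at 298 FPKM in Zeb2 cKO nerve and 19.5 FPKM in control nerve. Ptprz1, a receptor for pleiotrophin, was 11.96-fold higher, at 37.9 FPKM in Zeb2 cKO nerve and 3.17 FPKM in control nerve. Dbi, an acyl-CoA-binding protein, had the highest level of the list after Vim, 1319 FPKM in Zeb2 cKO nerve and 588 FPKM in control nerve. Dbi and Notch1 were within 2-fold after rescaling, at log2 ratios of 0.95 and 0.89. The transcription factors of neural progenitors Pax6 and Hes5 were below the filter, at 0.394 and 0.0949 FPKM in Zeb2 cKO nerve and 0.359 and 0.317 FPKM in control nerve.

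**Figure D4:**
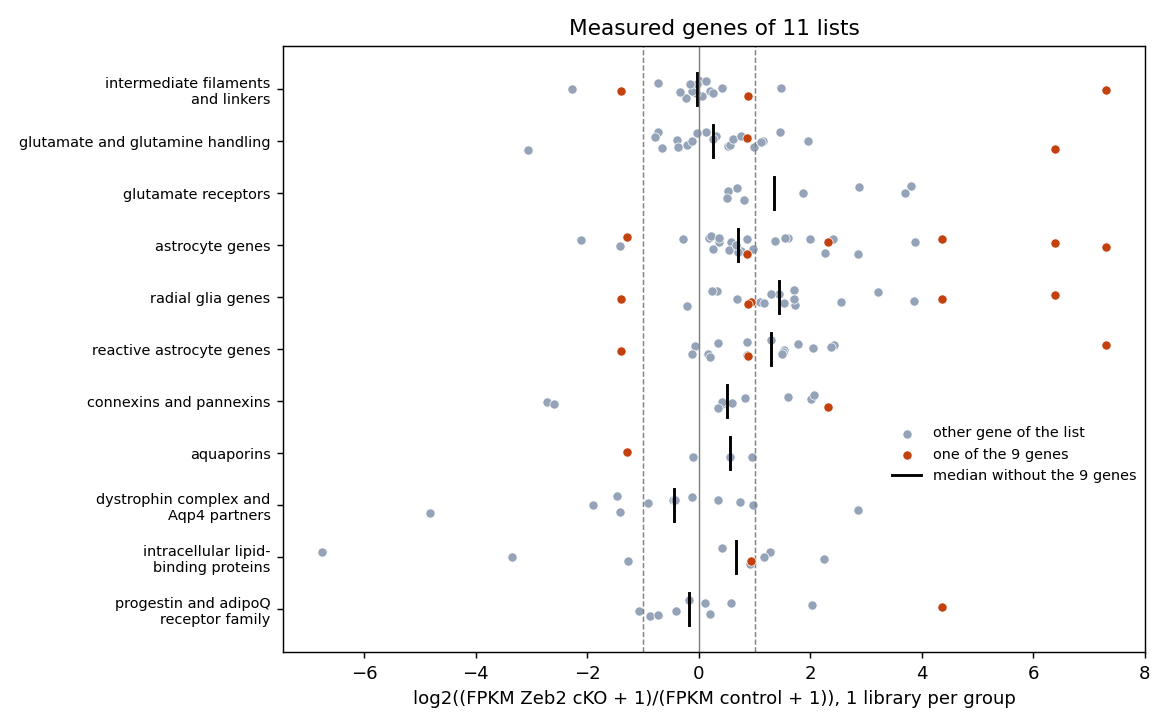
Log2 ratio of the Zeb2 cKO library to the control library, with 1 FPKM added to both, for each measured gene of 11 lists; orange points are the 9 genes, grey points the other genes of a list, and black bars the median of the grey points. Grey points of the radial glia and glutamate receptor lists have medians of 1.44 and 1.34, and those of the filament list a median of -0.04.

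Fibroblasts, perineurial cells and endothelium are other cells of the nerve that are known to make Vim, Gja1 or both. Of 11 fibroblast markers, 6 were called higher and 0 lower, and their summed level was 9318 FPKM in Zeb2 cKO nerve and 5656 FPKM in control nerve. Of 10 perineurial markers, 7 were called higher and 0 lower, with a sum of 331 FPKM in Zeb2 cKO nerve and 114 FPKM in control nerve. After rescaling to the median gene, 3 fibroblast and 6 perineurial markers were called higher. Endothelial markers, 0 of 11 called, summed to 344 FPKM in Zeb2 cKO nerve and 229 FPKM in control nerve. None of the markers of these lists was listed at 0. Their part in the values of Vim and Gja1 was not tested.

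Markers of other cell types were summed in the same way. Of 10 oligodendrocyte markers, 9 were below the filter, and the list summed to 2.79 FPKM in Zeb2 cKO nerve and 4.89 FPKM in control nerve. Klk6 was listed at 0 in both libraries and Opalin in Zeb2 cKO nerve. Of 12 neuronal markers 6 were measured and 0 were called, with a sum of 35.3 FPKM in Zeb2 cKO nerve and 42.2 FPKM in control nerve. Macrophage markers, 0 of 10 called, summed to 117 FPKM in Zeb2 cKO nerve and 96.6 FPKM in control nerve. Pericyte and smooth muscle markers summed to 350.0 FPKM in Zeb2 cKO nerve and 316 FPKM in control nerve, with 2 called higher and 1, Des, lower. Des, which skeletal muscle also makes, held 19.8 FPKM of the Zeb2 cKO sum and 100.03 FPKM of the control sum. Adipocyte markers summed to 526 FPKM in Zeb2 cKO nerve and 216 FPKM in control nerve, with 4 of 5 called higher. After rescaling to the median gene, 0 pericyte and 2 adipocyte markers were called higher.

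Schwann cell markers as a list were lower in Zeb2 cKO nerve. Of 12 measured, 2 were called higher and 5 lower (1 and 6 after rescaling to the median gene), with a median log2 ratio of -0.67 and a summed level of 781 FPKM in Zeb2 cKO nerve and 2153 FPKM in control nerve. Sox10, which marks the lineage at every stage, was at 69.2 FPKM in Zeb2 cKO nerve and 139 FPKM in control nerve. The level of each gene relative to Sox10 was therefore also computed, as a choice made after the values were seen. Gfap stood at 4.34 times the Sox10 level in Zeb2 cKO nerve and 0.00657 times in control nerve, and Slc1a3 at 4.41 times in Zeb2 cKO nerve and 0.0192 times in control nerve. On this scale Vim, Glul and Fabp7 were 3.70-fold, 3.68-fold and 4.07-fold higher. Nes was at 0.368 times the Sox10 level in Zeb2 cKO nerve and 0.493 times in control nerve. Aqp4 was at 0.0130 times in Zeb2 cKO nerve and 0.0261 times in control nerve. By plain ratio Aqp4 was 2.01-fold lower on this scale. Nes and Aqp4 were both within 2-fold with the pseudocount, at log2 ratios of -0.41 and -0.72.

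**Figure D5:**
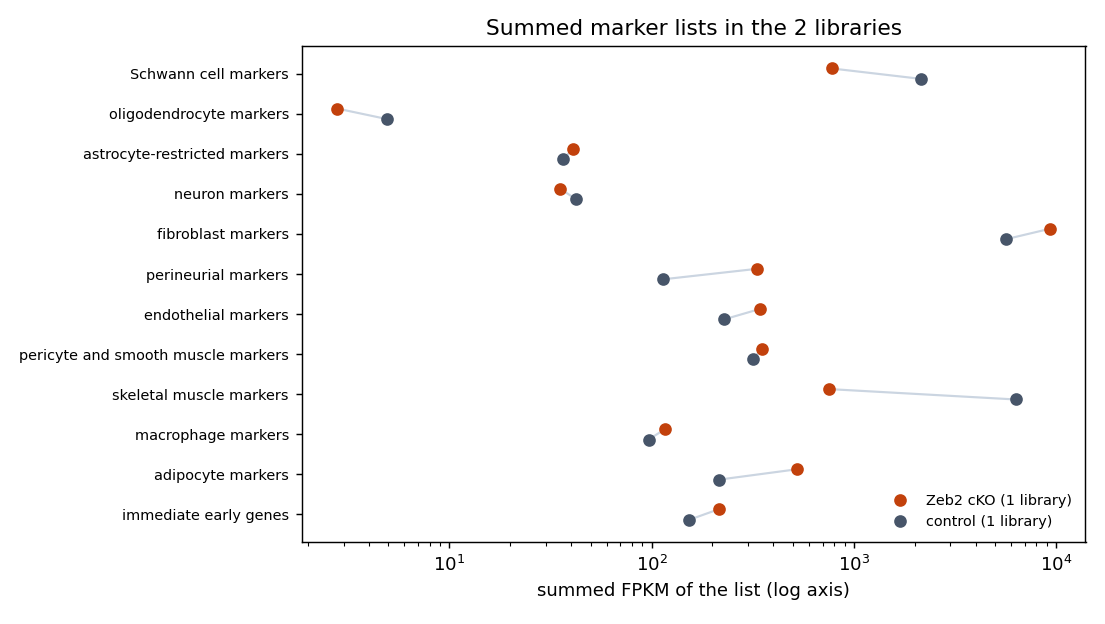
Summed FPKM (log axis) of 12 marker lists in Zeb2 cKO nerve and in control nerve; each point is the sum over a list in 1 library. The skeletal muscle sum is 750 FPKM in Zeb2 cKO nerve and 6317 FPKM in control nerve, and the perineurial sum is 331 FPKM in Zeb2 cKO nerve and 114 FPKM in control nerve.

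Rows of other genes overlap none of the 10 rows in the deposited tables. GENCODE on GRCm38 places Gm26668 on the strand opposite Gfap, Teddm2 opposite Glul and AC133525.2 opposite Aqp4, and Gm37310 on the strand of Slc1a3 and Mir8114 on that of Glul. Strand was not used here, so reads of these partners cannot be told apart from those of the 4 genes' own transcripts.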

How the data were processed

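Per the submitters' processing notes, reads were handled with CASAVA, TopHat, Cufflinks and Cuffdiff on mm9; versions are not given in the sources used here. Total RNA went, per the labels' protocols, into Illumina TruSeq libraries. Each table has 1 row for every RefSeq transcript. The authors' deposited FPKM values come from Cufflinks. The deposited coverage signal gives mean read depth over a transcript, before any scaling. Both samples of a group cite the same table, so a table was assigned to a group and not to a numbered sample.

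Rows not OK in either library (295) were dropped and FPKM summed by symbol. Ratios are log2 with a pseudocount of 1, which understates the change of low genes. FPKM keep no counts, so no count test was run. A read was taken to add 52.7 bases to coverage times length, the median of the lowest cluster of such products (476 values) among single-row genes above 2000 bases, so that estimated reads are approximate. Intervals are exact Poisson for levels and Clopper-Pearson for ratios and shares.

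The 9 genes and the 23 lists were chosen with earlier results of these data known. Of 352 list entries, 351 matched by symbol and 1 by RefSeq accession. Named genes are Zeb2, the 9 genes, fixed paralogs, the largest ratios and highest levels of a list, and neighbours of Gfap and Slc1a3 in the ratio order; those bearing on the 9 genes are printed. Slc38a1, Slc38a3, Slc6a13, Gjb2, Gjb5, Gjb6, Paqr7, Dmd, Aldoc, Atp1b2, Mlc1, Hepacam, Acsbg1, Ptprz1, Notch1, Pax6, Hes5, Ntsr2, Slc39a12, Klk6, Opalin, Sox10, Grik2, Grin1, Osmr and Lcn2 were named after their values were seen. Cdh19, Grin2d and counts without the 9 genes were added likewise. Values of some list genes are not reported here. Code was checked on simulated reads. Python 3.11.15, numpy 2.4.6, scipy 1.17.1, pandas 2.3.3 and matplotlib 3.10.9 were used.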

Additional observations from a re-analysis of the deposited data

How the results depend on the processing

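No paired analysis was possible because the files used here give values for 1 library per group, and the second labelled samples were not analysed here; leaving a library out would leave nothing to compare. Over pseudocounts of 0.1 and 0.5, rescaling to the median gene or the upper quartile, the highest row of each symbol, rows of every status and the scale relative to Sox10, 0 of 63 recomputed ratios of the 9 genes changed sign. Their log2 ranges were 7.09 to 8.30 for Gfap, 6.17 to 7.39 for Slc1a3, 4.16 to 5.36 for Mmd2, 2.11 to 3.31 for Gja1, 0.67 to 1.89 for Vim, 0.66 to 1.86 for Glul, 0.74 to 1.90 for Fabp7, -1.60 to -0.41 for Nes and -1.90 to -0.72 for Aqp4. With a pseudocount of 0.1 Fabp7 joined the higher genes, making 5. At 1.5-fold 7 of the 9 were higher, and at 3-fold 0 were lower. Relative to Sox10, 7 were higher and 0 lower. With a mean of at least 5 FPKM, 1 was lower, since Aqp4 was no longer measured. Over all genes, 1.5-fold gave 2537 higher and 1266 lower, 3-fold gave 401 and 457, and a mean of at least 5 FPKM gave 739 higher. Of 458 list counts, 50 moved by over 1.5 times, and of 183 list medians, 76 moved by over 0.1. Depth limits the low control values most: Gfap rests on about 88 reads there.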

Other observations

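Some receptors for glutamate differed as well. Of 21 listed, 8 were measured, 4 were 2-fold or more higher and 0 lower in Zeb2 cKO nerve, with a median log2 ratio of 1.34. Of all measured genes, 8.59% were called higher and 6.25% lower. The filter bears on this median, since Grik1, Grik3 and Grin2d passed it through their Zeb2 cKO level. Grin2d was at 2.09 FPKM in Zeb2 cKO nerve and 0.750 FPKM in control nerve. Over all 21 genes, without the filter, the median was 0.51. Gria2, an AMPA receptor subunit, was 18.3-fold higher (interval 17.0 to 19.9), at 55.5 FPKM in Zeb2 cKO nerve and 3.03 FPKM in control nerve. The kainate receptor subunits Grik3 and Grik2 were at 21.5 and 20.1 FPKM in Zeb2 cKO nerve, against 0.746 and 4.78 FPKM in control nerve. Grik1 was at 6.78 FPKM in Zeb2 cKO nerve and 0.0605 FPKM in control nerve, 112-fold higher with a wide interval of 55.8 to 266. Grik5, another kainate subunit, was at 22.1 FPKM in Zeb2 cKO nerve and 13.3 FPKM in control nerve. The NMDA receptor subunit Grin1 was below the filter, at 0.217 FPKM in Zeb2 cKO nerve and 0.312 FPKM in control nerve. The 4 calls were kept after rescaling to the median gene.

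Genes known to rise in reactive astrocytes held calls in 1 direction beyond the 9 genes. Without Gfap, Vim and Nes, 15 were measured, 8 were called higher and 0 lower, with a median log2 ratio of 1.30. The shares of all measured genes were 8.59% higher and 6.25% lower. Serpina3n, a protease inhibitor, was 10.5-fold higher, at 8.97 FPKM in Zeb2 cKO nerve and 0.855 FPKM in control nerve. Timp1, an inhibitor of metalloproteinases, was at 35.8 FPKM in Zeb2 cKO nerve and 6.12 FPKM in control nerve, and Osmr, the oncostatin M receptor, at 13.5 FPKM in Zeb2 cKO nerve and 2.51 FPKM in control nerve. S100a10 had the highest level of the list after Vim, at 311 FPKM in Zeb2 cKO nerve and 246 FPKM in control nerve, within 2-fold. Lcn2, a secreted marker of reactive astrocytes, was at 1.27 FPKM in Zeb2 cKO nerve and 1.39 FPKM in control nerve. Among immediate early genes, which answer acute stimuli, 4 of 10 were called higher (3 after rescaling to the median gene) and 1 lower, with a median log2 ratio of 0.87. Their part in these values was not tested.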
